A study of Mus musculus with 8 samples.

Results

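Lysozyme and perforin-2 act directly on bacteria inside phagocytes. The members described here are the lysozyme c genes Lyz1 and Lyz2 and the macrophage gene Mpeg1, which encodes perforin-2. They were chosen by name, with their levels in these libraries already known, so their values are described and not tested. All 3 were found among the 52636 genes of the count table, and all 3 passed the filter on low counts that left 13847 genes for testing.

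RNA was sequenced from primary microglia of wild-type (WT) C57BL/6 mice that had received vehicle or 5 µg/ml lipopolysaccharide (LPS, the outer-membrane glycolipid of Gram-negative bacteria) for 24 h, with 4 libraries in each group. Both groups were grown in serum-containing DMEM with CSF-1, the growth factor that keeps microglia alive in culture. Per the study's methods, microglia were shaken off mixed glial cultures of neonatal mouse brain, from pups given there as C57BL/6N, so both groups are cultured cells detached from an astrocyte layer. The labels call the samples biological replicates without tying them to animals or cultures, so p-values measure the spread between these samples.

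Library totals ranged from 20071921 to 30604447 counts. Levels are given as the share of a library's counts or as CPM, the counts divided by the library size after TMM scaling. TMM factors lay between 1.21 and 1.32 in vehicle libraries and between 0.701 and 0.833 in LPS libraries, so both scales are given for the members. At an adjusted p under 0.05 (edgeR), 4191 genes were higher and 4686 lower after LPS, and with plain library totals the split was 1988 higher and 8457 lower. Of 10 microglia markers, 7 of the 9 tested were lower after LPS, against 33.8% of all tested genes. Tmem119 (log2 fold change -1.21) and Aif1 (0.0023) were not called. Siglech was at the floor (at most 3 counts in every library). The 10 markers summed to 2651 to 3992 CPM in vehicle and 469 to 624 CPM in LPS libraries.

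Lysozyme cuts the sugar backbone of peptidoglycan, the mesh that gives the bacterial wall its strength, and the fragments it frees are ligands of pattern recognition receptors. The mouse carries a duplicated lysozyme c gene. Lyz2 is the copy expressed in macrophages and other myeloid cells, and Lyz1 is best known from the Paneth cells of the small intestine. Perforin-2 belongs to the MACPF family of pore-forming proteins, which also holds perforin-1 and the terminal complement components, and it is delivered to phagosomes of macrophages and microglia.

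On GRCm38 (GENCODE vM21 models), Lyz1 (ENSMUSG00000069515) lies on the reverse strand at chr10:117287797-117292868, and Lyz2 (ENSMUSG00000069516) lies on the same strand at chr10:117277331-117282321. The gap between these neighbours is 5475 bases. Mpeg1 (ENSMUSG00000046805) lies on the forward strand at chr19:12460779-12465283. Their exons span 1263, 1316 and 4334 bases, and no other annotated gene overlaps any of them.

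The coding sequences of Lyz1 and Lyz2 are both 447 bases long and differ at 22 bases, which makes them 95.1% identical, with 18 of 149 codons different. The stretches below were read from the reference genome through the GENCODE models and show how far a short read can separate the copies. Coding bases are numbered from 1 at the start codon. Coding bases 37 to 156 hold 14 of the differences, marked by capitals:
Lyz1: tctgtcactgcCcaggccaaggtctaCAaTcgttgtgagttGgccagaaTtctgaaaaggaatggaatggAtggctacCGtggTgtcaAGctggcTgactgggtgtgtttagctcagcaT
Lyz2: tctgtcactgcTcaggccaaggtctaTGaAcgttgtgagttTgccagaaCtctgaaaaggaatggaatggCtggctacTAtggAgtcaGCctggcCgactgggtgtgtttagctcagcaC
The opposite case is the run of 118 identical bases from 276 to 393, shown here up to coding base 395, with the only difference in capitals:
Lyz1: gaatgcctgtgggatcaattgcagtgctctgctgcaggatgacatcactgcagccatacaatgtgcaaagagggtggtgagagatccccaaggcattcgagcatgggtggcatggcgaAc
Lyz2: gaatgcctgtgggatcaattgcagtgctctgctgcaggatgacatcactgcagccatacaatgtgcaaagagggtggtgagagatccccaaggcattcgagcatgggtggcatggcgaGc

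Reads were 50 bases long per the labels, so every 50-base window of each transcript was compared with the other copy. Of 1214 windows of Lyz1, 195 (16.1%) occurred unchanged in Lyz2, and 195 of 1267 Lyz2 windows (15.4%) occurred unchanged in Lyz1. With at most 1 mismatch the share was 44.2% for Lyz1 and 42.3% for Lyz2, and with at most 3 it was 73.4% and 70.3%. The median Lyz1 window lay 2 mismatches from Lyz2. None of the 4285 windows of Mpeg1 occurred in either lysozyme transcript.

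**Figure D1:**
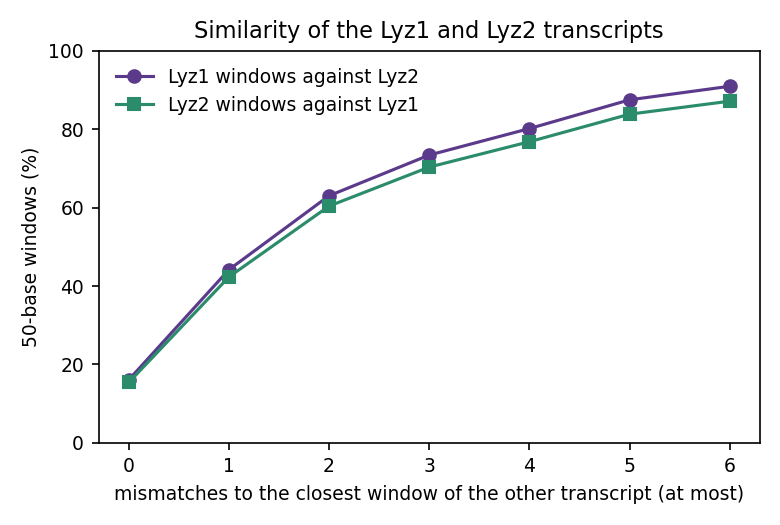
Share of 50-base windows of the Lyz1 and Lyz2 transcripts (y axis, %) that lie within a given number of mismatches (x axis) of the other transcript. The shares start at 16.1% and 15.4% for exact matches and reach 90.9% and 87.1% at up to 6 mismatches.

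Lyz2 was the gene with the most counts in the vehicle-treated microglia. It took 6.17%, 3.18%, 4.03% and 3.70% of all counts in vehicle libraries 1 to 4, and 1.51%, 0.701%, 0.927% and 0.781% in LPS libraries 1 to 4. The lowest vehicle share lay above the highest LPS share, and replicate 1 was the highest library of both groups. How many of all genes separate the groups in this way by share was not counted. On plain library totals the median log2 fold change of all tested genes was -0.79. The mean share was 4.27 ± 1.32% (SD, n = 4) with vehicle and 0.979 ± 0.365% (SD, n = 4) with LPS, a ratio of 4.36.

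In CPM, Lyz2 stood at 49248, 24858, 33358 and 28062 in vehicle libraries 1 to 4. In LPS libraries 1 to 4 it stood at 18126, 8595, 13232 and 9544 CPM. The groups did not overlap on this scale either. The fitted log2 fold change was -1.45 (SE 0.31), which is 2.74-fold lower after LPS. Over all tested genes the median log2 fold change was -0.11, and 16.0% of tested genes had a lower value than Lyz2. Every LPS library lay below every vehicle library in 31.5% of all tested genes, and 24.2% had a log2 fold change of -1 or less.

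By counts Lyz2 ranked first in all 4 vehicle libraries, ahead of the cathepsin gene Ctsb at a mean of 2.22% of counts. Per kilobase of exon it was also first in all 4, at 25746 ± 8227 CPM per kilobase (SD, n = 4) against 6290 ± 803 for Apoe, the next gene. After LPS it ranked 4, 10, 8 and 10 by counts in libraries 1 to 4, and 1, 7, 4 and 6 per kilobase. The serum amyloid gene Saa3 led the LPS group on both scales. Ordered by mean level per kilobase after LPS, Lyz2 (9403 ± 3286) came next after Saa3 (13107 ± 764) and just ahead of B2m (9167 ± 1820), whose range of mean ± SD it overlaps.

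**Figure D2:**
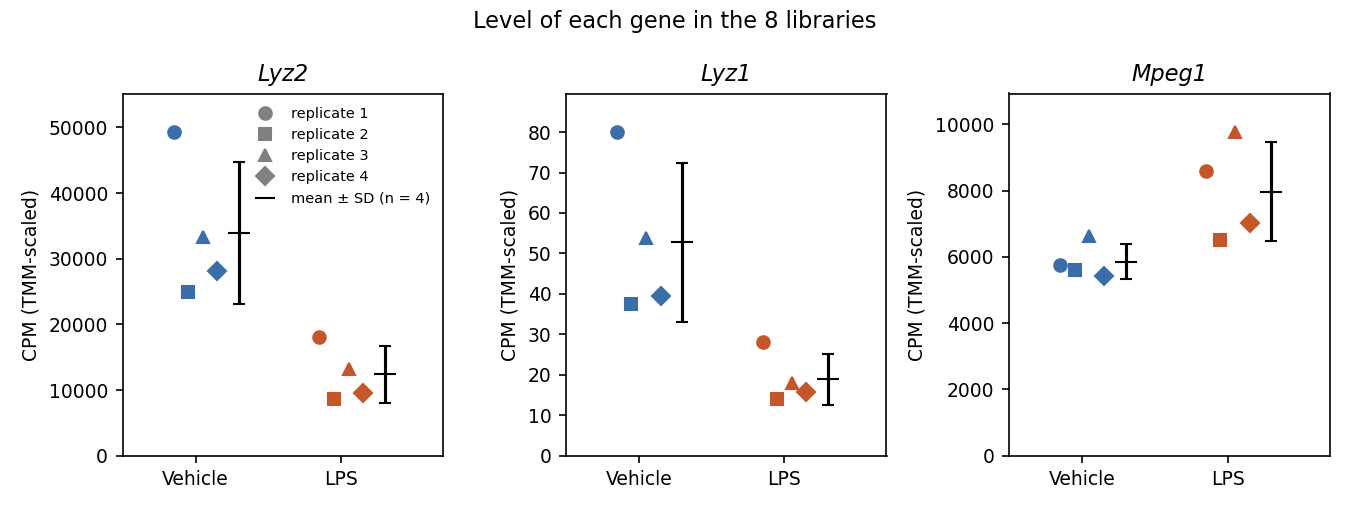
CPM after TMM scaling (y axes, linear and starting at 0) of Lyz1, Lyz2 and Mpeg1 in the 4 vehicle and 4 LPS libraries, with points for libraries by replicate number and bars for mean ± SD. The LPS libraries of both lysozyme genes lie below all vehicle libraries, while the groups overlap for Mpeg1.

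Lyz1 was read at a small fraction of the Lyz2 level. Its counts were 2284, 1087, 1696 and 1112 in vehicle libraries 1 to 4. The counts in LPS libraries 1 to 4 were 469, 257, 385 and 289. In CPM the vehicle libraries lay at 79.9, 37.6, 53.8 and 39.5. The LPS libraries lay at 28.1, 14.0, 18.0 and 15.6 CPM, all under the lowest vehicle library, and again replicate 1 was highest in both groups. Means were 52.7 ± 19.5 CPM with vehicle and 18.9 ± 6.32 CPM with LPS (SD, n = 4 each), with a log2 fold change of -1.48 (SE 0.29). Per kilobase of exon, the vehicle level was 41.7 ± 15.5 CPM, against 25746 ± 8227 for Lyz2.

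The counts of Lyz1 kept a near fixed proportion to those of Lyz2. Lyz1 made up 0.162%, 0.151%, 0.161% and 0.140% of the counts of both genes in vehicle libraries 1 to 4. In LPS libraries 1 to 4 the proportion was 0.155%, 0.163%, 0.136% and 0.164%. The means were 0.154 ± 0.0101% with vehicle and 0.154 ± 0.0130% with LPS (SD, n = 4 each), and the groups overlapped throughout. The Wilson 95% intervals of the single libraries ran from 0.156% to 0.169% in vehicle library 1, where Lyz1 had most counts, and from 0.144% to 0.184% in LPS library 2, where it had fewest. These intervals cover counting error only.

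Over the 8 libraries the log2 CPM of Lyz1 spanned 2.51 and that of Lyz2 spanned 2.52, whereas their difference spanned 0.27. There were between 610.5 and 736.9 counts of Lyz2 for each count of Lyz1. Given the sequence similarity shown above, the Lyz1 counts are uncertain as a measure of that gene: transcription of Lyz1 and Lyz2 reads assigned to the copy cannot be told apart from these counts. Which share of the Lyz1 counts belongs to Lyz2 was not tested.

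**Figure D3:**
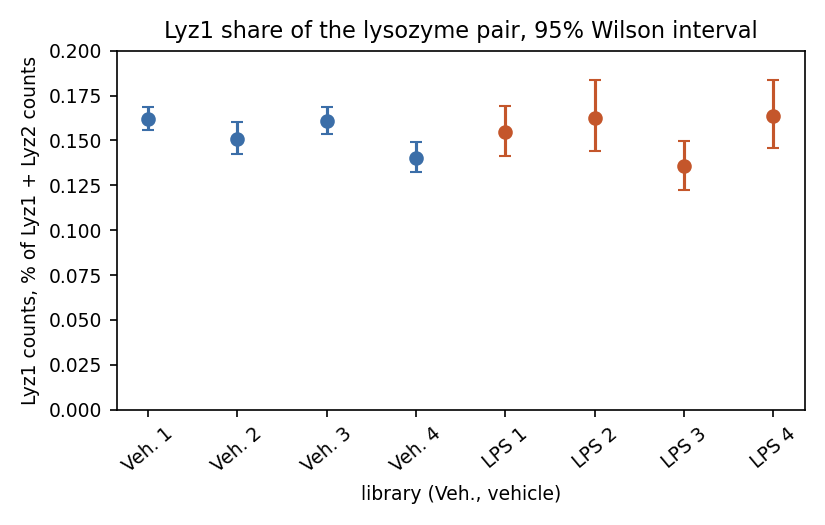
Lyz1 as a percentage of the summed Lyz1 and Lyz2 counts (y axis) in each of the 4 vehicle and 4 LPS libraries (x axis), with Wilson 95% intervals that cover counting error only. All libraries lie between 0.136% and 0.164%.

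Mpeg1 was also among the most abundant transcripts and differed less between the groups than Lyz2 did. Its counts were 164366, 161837, 208636 and 152853 in vehicle libraries 1 to 4. They were 143449, 119427, 209241 and 130058 in LPS libraries 1 to 4. By counts it ranked 6 in every vehicle library and between 10 and 16 in the LPS libraries. Per kilobase of exon it ranked between 12 and 15 in the vehicle libraries and between 21 and 33 in the LPS libraries.

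The direction for Mpeg1 depended on the scale. In CPM the vehicle libraries stood at 5753, 5599, 6617 and 5427. The LPS libraries stood at 8585, 6504, 9759 and 7036 CPM, and LPS library 2 lay under vehicle library 3. Every LPS library lay above every vehicle library in 28.7% of all tested genes. The means were 5849 ± 529 and 7971 ± 1483 CPM (SD, n = 4 each), with a log2 fold change of 0.45 (SE 0.18), or 1.36-fold, and 70.1% of tested genes had a lower log2 fold change. As a share of library counts the order was the opposite. Vehicle libraries 1 to 4 held 0.721%, 0.716%, 0.798% and 0.715%, and LPS libraries 1 to 4 held 0.715%, 0.530%, 0.684% and 0.576%. The LPS shares were all below the vehicle shares, but the Wilson 95% intervals of LPS library 1 (0.711% to 0.718%) and vehicle library 4 (0.712% to 0.719%) overlapped. The log2 fold change on plain library totals was -0.24 (SE 0.14). Library totals in place of TMM moved the median log2 fold change of all tested genes by -0.68, to -0.79. On that scale 8457 of 13847 tested genes were called lower (edgeR). How many genes separate the groups by share of library counts was not counted.

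The ratio of Lyz2 to Mpeg1 inside a library needs no scaling between libraries. Per kilobase of exon it was 28.2, 14.6, 16.6 and 17.0 in vehicle libraries 1 to 4. It was 6.95, 4.35, 4.47 and 4.47 in LPS libraries 1 to 4, so the groups did not overlap. The mean ratio was 19.1 ± 6.14 with vehicle and 5.06 ± 1.26 with LPS (SD, n = 4 each), a mean difference of -1.90 on the log2 scale. With other denominators the groups overlapped. The ratio of Lyz2 to Ctsb counts was 3.22, 1.37, 1.76 and 1.57 in vehicle libraries 1 to 4. In LPS libraries 1 to 4 it was 1.81, 0.735, 0.980 and 0.790, each below the vehicle library of the same number. The means were 1.98 ± 0.844 with vehicle and 1.08 ± 0.498 with LPS (SD, n = 4 each). The ratio of Lyz2 to Apoe per kilobase was 7.11, 2.93, 3.51 and 3.42 in vehicle libraries 1 to 4. In LPS libraries 1 to 4 it was 6.05, 2.11, 13.9 and 2.30. The means were 4.24 ± 1.93 with vehicle and 6.10 ± 5.52 with LPS (SD, n = 4 each). Only LPS library 3 lay above the vehicle library of the same number. The 3 genes together took 5.01 ± 1.32% of the counts in vehicle and 1.61 ± 0.442% in LPS libraries.

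**Figure D4:**
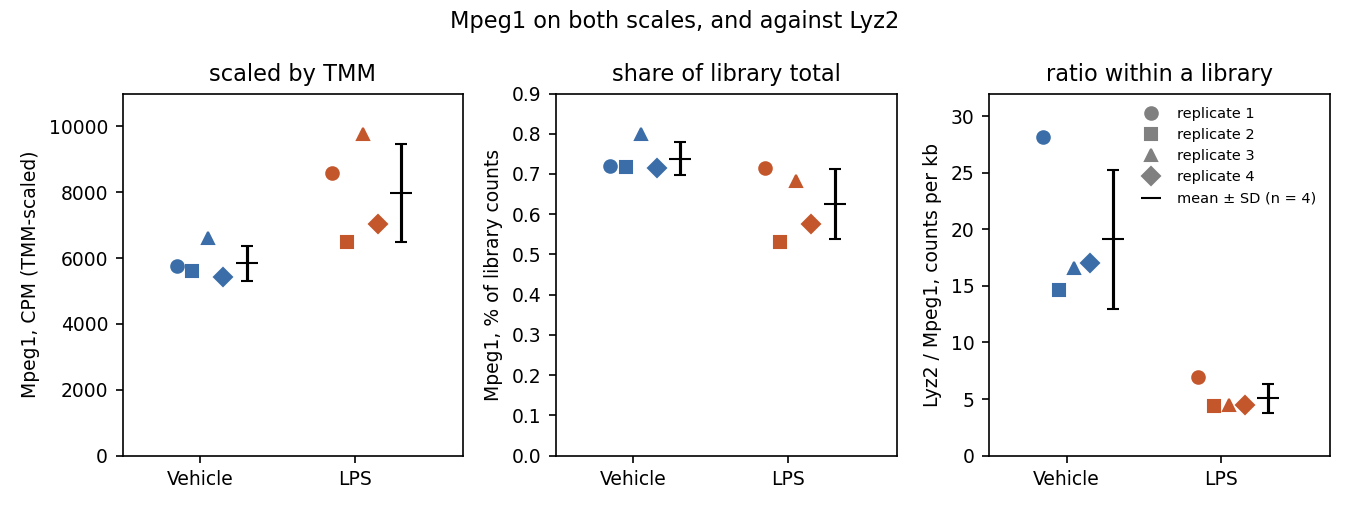
Mpeg1 in CPM after TMM scaling (left), Mpeg1 as % of library counts (middle) and the ratio of Lyz2 to Mpeg1 counts per kilobase of exon (right) in the 4 vehicle and 4 LPS libraries, with bars for mean ± SD. The LPS mean lies above the vehicle mean on the left (7971 against 5849 CPM) and below it in the middle (0.626% against 0.738%), and the mean ratio is 19.1 with vehicle and 5.06 with LPS.

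For the lysozyme genes, vehicle and LPS libraries that carry the same replicate number gave closely matched differences. For Lyz2 the log2 difference in CPM was -1.44, -1.53, -1.33 and -1.56 for numbers 1 to 4, with a mean of -1.47 ± 0.10 (SD, n = 4). For Lyz1 it was -1.51, -1.43, -1.58 and -1.34, with a mean of -1.46 ± 0.11. Both spreads were smaller than those of log2 CPM within a group, which were 0.43 and 0.49 for Lyz2 and 0.50 and 0.44 for Lyz1 with vehicle and LPS. For Mpeg1 the differences were 0.58, 0.22, 0.56 and 0.37, with a mean of 0.43 ± 0.17. That spread lay between those of its log2 CPM within a group, 0.13 with vehicle and 0.27 with LPS.

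Lysozyme is also abundant in neutrophils and monocytes, so the markers of those cells were read beside it. Of 10 neutrophil markers, 8 were at the floor in all libraries, namely Ly6g, Mpo, Elane, Prtn3, Ltf, Ngp, Cxcr2 and Retnlg. The summed neutrophil level was 2.09 to 13.9 CPM in vehicle and 130 to 584 CPM in LPS libraries, and nearly all of it came from the collagenase gene Mmp8 (5.72 ± 5.53 against 278 ± 210 CPM, SD, n = 4 each). The 6 monocyte markers summed to 18.7 to 48.8 CPM in vehicle and 26.7 to 69.1 CPM in LPS libraries, with Chil3 at the floor. The 6 markers of border macrophages summed to 986 to 1877 and 1741 to 3372 CPM, with Lyve1 at the floor. Of the 4 tested, 2 were higher and 2 lower, against 30.3% higher and 33.8% lower among all tested genes. Siglec1 stood at 601 ± 215 and 2552 ± 663 CPM, whereas Mrc1, the mannose receptor, stood at 650 ± 197 and 38.9 ± 6.63 CPM. The part of such cells in the levels of the members was not tested, and in these bulk samples fewer cells of a type and less RNA per cell cannot be told apart.

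No other gene of the lysozyme family came near these levels. Of 8 listed relatives, 7 (Lyg1, Lyg2, Lyzl1, Lyzl6, Spaca3, Spaca5 and Lalba) were at the floor in all libraries, and none passed the filter for testing. Lyzl4, a lysozyme-like gene, stood at 0.446 ± 0.182 CPM with vehicle and 0.0830 ± 0.129 CPM with LPS (SD, n = 4 each), with at most 22 and 5 counts in a library. Lyzl4 was called lower by DESeq2, by edgeR with no filter, and by edgeR when vehicle library 1 or LPS library 2 was left out. It was also tested when LPS library 1, 3 or 4 was left out and was not called there.

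The relatives of perforin-2 were scarce as well. Of 11 MACPF genes, Prf1 (perforin-1), C6, C7, C8a and C8b were at the floor in every library, and C9 and Brinp3 were too low to test. The other 4 were the neural genes Astn1, Astn2, Brinp1 and Brinp2. None of them was called by edgeR, none had an unadjusted p under 0.05, and DESeq2 also called none, while 64.1% of all tested genes were called. Brinp1 stood at 3.96, 4.95, 0.539 and 5.11 CPM in vehicle libraries 1 to 4 and at 2.03, 1.52, 0 and 1.35 CPM in LPS libraries 1 to 4. With the replicate number as a block, Astn1 (log2 fold change -0.74, adjusted p = 0.0419), Brinp1 (-1.72, adjusted p = 0.00724) and Brinp2 (-1.07, adjusted p = 0.0480) were called lower by edgeR. Vehicle library 3 and LPS library 3 were the lowest of their groups in all 4 genes. The summed level of 5 markers of oligodendrocyte precursors was lowest in the same libraries, at 14.8 and 0.466 CPM. Its ranges were 14.8 to 50.7 CPM in vehicle and 0.466 to 7.24 CPM in LPS. The sum of 5 astrocyte markers was lowest in vehicle library 3 (16.5 CPM) but not in LPS library 3 (41.7 CPM, lowest 35.9 CPM). Of these 5, 3 were called lower and 1, Gja1, higher (0.873 to 48.6 CPM), against 33.8% and 30.3% of all tested genes. Gja1 made up most of the sum in LPS libraries (28.9 to 98.1 CPM, with sums of 35.9 to 109 CPM). The sum there does not show how the other astrocyte markers were ordered by library. The part of either cell type in the 4 neural MACPF genes was not tested.

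Genes listed for the sensing and handling of peptidoglycan changed in both directions. The list includes Tlr2, a receptor for bacterial lipoproteins, and its partners Tlr1 and Tlr6. Of 16 listed genes 11 were tested, and 6 were higher and 5 lower after LPS, against 30.3% and 33.8% of all tested genes. Their median log2 fold change was 1.34. The intracellular muropeptide receptor Nod2 stood at 9.42, 6.43, 11.96 and 6.32 CPM in vehicle libraries 1 to 4 and at 87.1, 80.1, 96.6 and 84.1 CPM in LPS libraries 1 to 4. It rose by 3.35 on the log2 scale (SE 0.21, edgeR adjusted p = 1.29e-06). Nod1, its relative, rose by 2.58 (SE 0.27, adjusted p = 2.69e-05), and their shared kinase Ripk2 rose by 2.39 (SE 0.29, adjusted p = 7.72e-05). Slc15a3, a peptide transporter of endolysosomes, rose by 3.14 (SE 0.15, adjusted p = 3.46e-07), from 354 ± 45.1 to 3123 ± 241 CPM (SD, n = 4 each).

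The lower genes of this list included Slc46a3 and Tlr2. Slc46a3, a lysosomal transporter, fell by 4.76 on the log2 scale (SE 0.35, edgeR adjusted p = 3.43e-06), from 35.3 to 50.9 CPM in vehicle libraries to 0.658 to 2.71 CPM in LPS libraries. Tlr2, the surface receptor for bacterial lipoproteins, stood at 442, 264, 363 and 259 CPM in vehicle libraries 1 to 4 and at 51.9, 30.7, 43.8 and 34.1 CPM in LPS libraries 1 to 4. It fell by 3.05 (SE 0.24, adjusted p = 4.39e-06), while its partners Tlr1 and Tlr6 were called higher, at 1.82 and 1.34. Slc15a2 fell by 1.67 (SE 0.29, adjusted p = 0.000758) and the sugar kinase Nagk by 0.54 (SE 0.10, adjusted p = 0.000810). The secreted peptidoglycan recognition genes Pglyrp1, Pglyrp2 and Pglyrp4 and the transporter gene Slc46a2 were at the floor in all libraries.

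Other genes of killing and degradation in the phagosome were mostly higher. Of 19 listed genes 13 were tested, 9 were higher, 1 was lower and 3 were not called, against 30.3% higher and 33.8% lower among all tested genes. The median log2 fold change was 1.60, and that of all tested genes was -0.11. Ctsg, Mpo, Ltf and Bpi, known from neutrophil granules, were at the floor. Nos2, the inducible nitric oxide synthase, rose from 1.02 ± 0.461 to 11584 ± 452 CPM (SD, n = 4 each), a log2 fold change of 13.45 (SE 0.41, edgeR adjusted p = 3.75e-08). The siderophore-binding gene Lcn2 rose by 10.23 (SE 0.73, adjusted p = 2.52e-06), the itaconate-producing enzyme gene Acod1 by 7.38 (SE 0.54, adjusted p = 3.17e-06) and the protease inhibitor Slpi by 7.25 (SE 0.88, adjusted p = 7.16e-05). Without vehicle library 1 the value was 11.24 for Lcn2 and 8.25 for Slpi, and without LPS library 1, where Slpi stood at 425 CPM against 79.5 to 201 in the others, it was 6.56 for Slpi. Ctsd, the lysosomal protease cathepsin D, was the only lower one. It stood at 8261, 8014, 8795 and 8538 CPM in vehicle libraries 1 to 4 and at 3259, 2433, 3757 and 2880 CPM in LPS libraries 1 to 4. Its log2 fold change was -1.45 (SE 0.17, adjusted p = 6.51e-05).

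**Figure D5:**
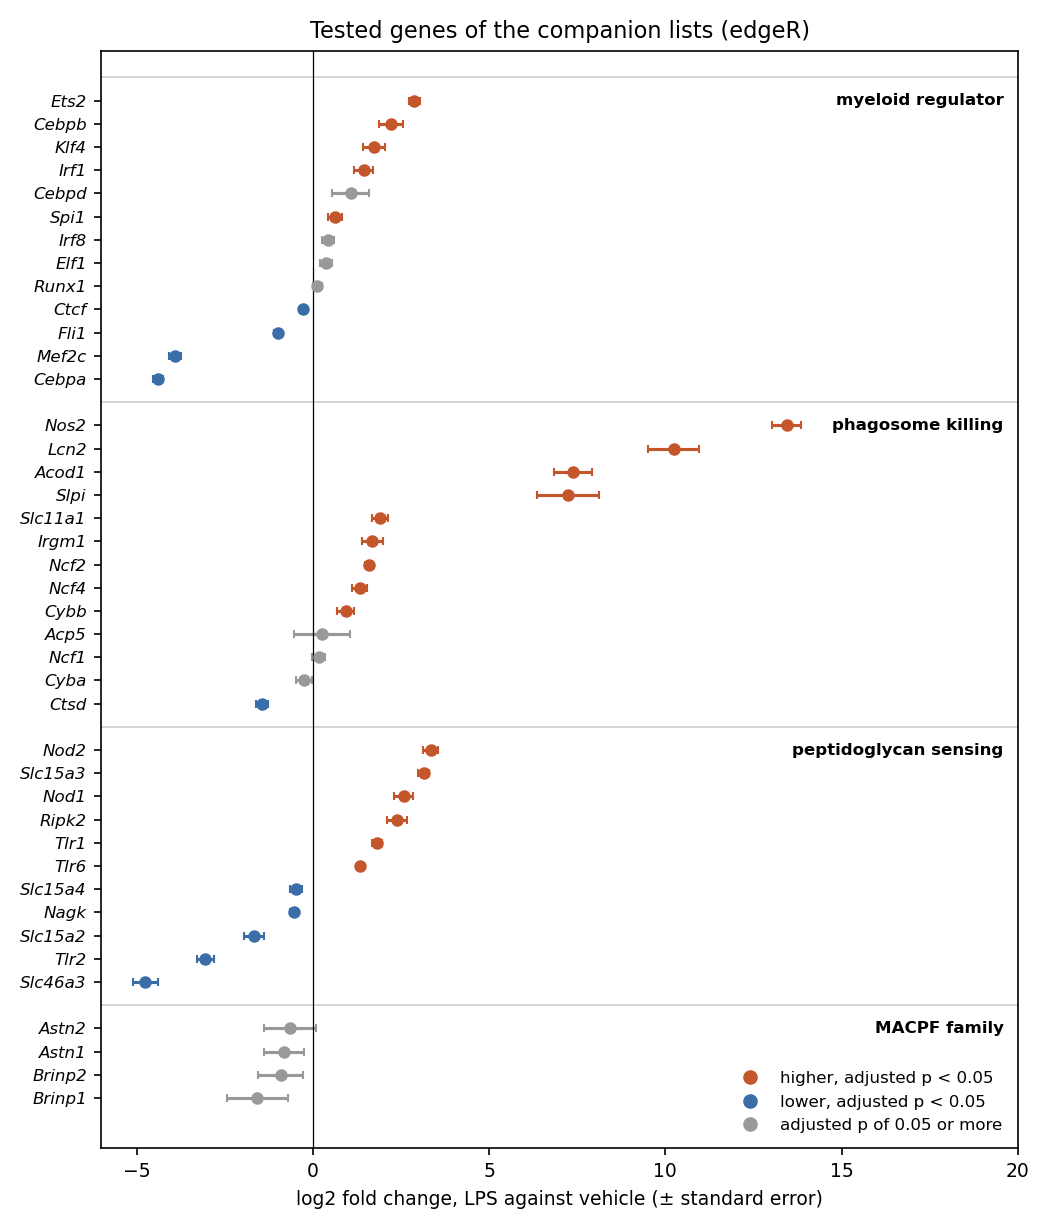
Fitted log2 fold change with its standard error (x axis, LPS against vehicle, 4 libraries each) for the tested genes of 4 lists of related genes (y axis), coloured by the edgeR call. Nos2 (13.45) lies farthest to the right and Slc46a3 (-4.76) farthest to the left, and the 4 MACPF genes were not called.

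Of the listed transcription regulators of myeloid genes, 13 of 14 were tested, with 5 higher, 4 lower and 4 not called, so 69.2% were called against 64.1% of all tested genes. The largest rises were in Ets2 (2.88, SE 0.15, edgeR adjusted p = 5.49e-07) and Cebpb (2.22, SE 0.34, adjusted p = 0.000329), followed by Klf4 (1.74, SE 0.32, adjusted p = 0.000894) and Irf1 (1.44, SE 0.27, adjusted p = 0.00108). Cebpa, which encodes the myeloid factor C/EBP alpha, stood at 175 to 196 CPM in vehicle and 7.23 to 10.1 CPM in LPS libraries and fell by 4.38 (SE 0.14, adjusted p = 4.25e-08). Mef2c fell by 3.92 (SE 0.17, adjusted p = 1.75e-07) and Fli1 by 0.99 (SE 0.11, adjusted p = 3.92e-05). The insulator gene Ctcf was lower by a small amount (-0.27, SE 0.09, adjusted p = 0.0261), and that call was lost when vehicle library 2, 3 or 4 or LPS library 1, 2 or 4 was left out, with DESeq2 and with no filter.

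Spi1 and Irf8 fall outside the naming rule and were picked with their values in view, since their products PU.1 and IRF8 define the myeloid lineage. Spi1 stood at 266, 262, 314 and 247 CPM in vehicle libraries 1 to 4 and at 479, 453, 260 and 503 CPM in LPS libraries 1 to 4. LPS library 3 lay within the vehicle range. The log2 fold change was 0.64 (SE 0.20, edgeR adjusted p = 0.0183), and the call was lost without vehicle library 2, vehicle library 4 or LPS library 4 and with upper quartile scaling, and the value was -0.012 with plain library totals. For Irf8 the log2 fold change was 0.43 (SE 0.18, adjusted p = 0.0587), with 170 to 239 CPM in vehicle and 211 to 362 CPM in LPS libraries, and it was called higher by DESeq2 and without vehicle library 3 or LPS library 3.

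The promoters of the members were read from RefSeq, GRCm38.p6, as the 250 bases before the RefSeq start, and all 3 members matched. Each is printed 5′ to 3′ on the strand of its gene. The part of these sequences in the levels of the members was not tested, and the Lyz1 counts may hold Lyz2 reads. For Lyz2, whose GENCODE transcript starts upstream of the RefSeq start, only the bases outside that transcript are printed. Lyz1 is at chr10:117292869-117293118, Lyz2 at chr10:117282322-117282522 and Mpeg1 at chr19:12460520-12460769. Capitals mark the match to GGAAGT, the core bound by PU.1 and other ETS factors, read on the opposite strand:
Lyz1: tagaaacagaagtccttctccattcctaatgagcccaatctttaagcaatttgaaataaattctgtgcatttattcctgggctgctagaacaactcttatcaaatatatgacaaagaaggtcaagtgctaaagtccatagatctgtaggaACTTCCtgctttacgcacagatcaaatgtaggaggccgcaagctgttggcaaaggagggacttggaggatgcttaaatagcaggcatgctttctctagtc
Lyz2: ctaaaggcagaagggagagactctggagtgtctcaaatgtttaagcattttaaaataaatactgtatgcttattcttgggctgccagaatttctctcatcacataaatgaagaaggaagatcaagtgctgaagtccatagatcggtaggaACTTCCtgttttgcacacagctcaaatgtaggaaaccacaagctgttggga
Mpeg1: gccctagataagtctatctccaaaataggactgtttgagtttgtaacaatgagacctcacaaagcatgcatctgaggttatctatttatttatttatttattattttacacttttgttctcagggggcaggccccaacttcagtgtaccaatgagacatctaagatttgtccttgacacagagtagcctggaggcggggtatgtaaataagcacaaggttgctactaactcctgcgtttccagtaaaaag

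The 250-base promoters of Lyz1 and Lyz2 were 79.4% identical in alignment, and the 50 bases next to the RefSeq start were the same in both. Lyz1 and Mpeg1 aligned at 47.9% and Lyz2 and Mpeg1 at 45.6%. Matches were searched on both strands of the whole 250 bases. GGAAGT matched at -100 to -95 in both lysozyme promoters and not in Mpeg1, and 19.7% of 32851 promoters hold it. The C/EBP pattern TTNCNNAA matched at -209 to -202 in Lyz1 and at -55 to -48 in Lyz2, without overlap with GGAAGT, and 36.8% of promoters hold it. No match was found in the 3 windows for an interferon-stimulated response element (2.98% of promoters), an NF-kB site (4.11%), the AP-1 pattern TGANTCA (6.75%) or the TATA box TATAAA (12.4%).

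The genes around the members were compared to see whether the neighbourhood moved as well. Of 20 flanking genes, 5 on each side of the lysozyme pair and of Mpeg1, 9 were tested, with 3 higher, 5 lower and 1 not called, against 30.3% higher and 33.8% lower among all tested genes. Lrrc10, Glyat and the olfactory receptor genes Olfr1437, Olfr1438-ps1, Olfr1440, Olfr1441 and Olfr1442 were at the floor. Near the lysozyme pair, Yeats4 (-0.53, SE 0.12, edgeR adjusted p = 0.00347), Cct2 (-0.39, SE 0.09, adjusted p = 0.00268), Cpsf6 (-0.56, SE 0.10, adjusted p = 0.000747) and Nup107 (-0.68, SE 0.13, adjusted p = 0.00137) were lower. In the same neighbourhood Frs2 (0.58, SE 0.18, adjusted p = 0.0169) and the p53 regulator Mdm2 (1.90, SE 0.30, adjusted p = 0.000379) were higher. Frs2 was at 0.36 without LPS library 3 and at -0.12 with plain library totals. Mdm2 was at 1.48 without LPS library 3, which held 783 CPM against 276 to 367 CPM in the other LPS libraries. Slc35e3 was not called, at -0.33 (adjusted p = 0.125), but was called lower with upper quartile scaling (-0.49) and with plain library totals (-1.01). The nearest neighbour of the pair, 9530003J23Rik, whose coding sequence is 70.4% identical to that of Lyz1, was at the floor.

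Beside Mpeg1, the E3 ligase gene Dtx4 lies on the opposite strand with its 3′ end 1055 bases from Mpeg1 and was lower (log2 fold change -0.57, SE 0.15, edgeR adjusted p = 0.00742). It stood at 64.4, 58.1, 47.8 and 72.0 CPM in vehicle libraries 1 to 4 and at 34.5, 43.3, 37.6 and 47.7 CPM in LPS libraries 1 to 4. Fam111a was higher (0.64, SE 0.14, adjusted p = 0.00321) and stood at -0.048 with plain library totals. Pfpl, whose coding sequence is 75.2% identical to that of Mpeg1, had at most 7 counts in any library.

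The genes most like each member were sought among genes whose log2 CPM averaged at least 5, by the root mean square difference of log2 CPM after subtracting each gene's mean over the 8 libraries. Of 4640 genes the closest to Lyz1 was Lyz2, at 0.0987. The next for both were Ugt1a7c (0.182 from Lyz2), Creg1 (0.217), Serpinb8 (0.219) and Gm2a (0.239), followed for Lyz2 by Sidt2 (0.276). Ugt1a7c shares exons with other genes of its locus, so its counts are uncertain too. The closest to Mpeg1 were Itpr2 (0.0717), Rtraf (0.0755), Syap1 (0.0773), Il10ra (0.0981) and Rpe (0.102). Lyz2 and Mpeg1 lay 1.00 apart. These distances describe 8 libraries that share the group difference and the scaling.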

How the data were processed

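The authors aligned single-end reads to GRCm38 with GSNAP and deposited, for each of the 8 libraries, the whole-number count of reads per Ensembl gene, not normalized. Per the study's methods only reads with a unique alignment were kept. The labels and the methods name different kits and sequencers, and the annotation release and use of strand are not given in the sources used here. Counts were tested with edgeR 4.0.16 in R 4.3.3 (TMM, filterByExpr with a minimum count of 10 and total of 15, quasi-likelihood test, two-sided), with Benjamini-Hochberg adjustment over all 13847 tested genes at 0.05. GENCODE vM21 paired 52489 of 52636 identifiers with a symbol. Lengths, windows and motifs were computed with Python 3.11.15, numpy 2.4.6, pandas 2.3.3, scipy 1.17.1 and Biopython 1.88, with plots from matplotlib 3.10.9. Simulated counts with known changes were used to check the fits.

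Library totals of 20071921 to 30604447 counts set the precision, and a count of up to 3 in every library was taken as the floor. The members and lists were chosen with earlier results of these data known. From each list up to 4 of the largest rises and 4 of the largest falls were named, with genes at the floor, all tested flanking genes and the 5 nearest genes in pattern. Vehicle and LPS libraries of the same replicate number deviated together from their group means (r of 0.373, 0.196, 0.171 and 0.108 over 8010 genes). That was a check of the files, since no source states a pairing. Differences by number are therefore given for the members, but the main fit used the group only. A fit with the number as a block was an alternative. The others were DESeq2 1.42.0, upper quartile scaling, plain library totals, no filter, at least 10 counts in every library, an adjusted p under 0.01, and leaving out each library. The filters were applied to the member levels only after the data had been seen.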

Additional observations from a re-analysis of the deposited data

Results flagged for a closer look

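Among 100 groups of 4 libraries examined, 7 had a library set apart from the other 3 by Dixon's test at the 95% level, which chance gives in about 1 of 20 groups. Ets2 stood at 929 CPM in LPS library 1, against 835 to 844 in the other LPS libraries. Lcn2 stood at 12.6 CPM in vehicle library 1, against 2.41 to 2.79 in the other vehicle libraries. Nagk stood at 41.7 CPM in vehicle library 2, against 49.0 to 50.5. Ripk2 stood at 163 CPM in LPS library 3, against 65.9 to 71.4. In CPM none of the 3 members had such a library. On other scales LPS library 1 held 0.00234% of its counts as Lyz1, against 0.00114% to 0.00128% in the other LPS libraries, and its ratio of Lyz2 to Mpeg1 per kilobase was 6.95, against 4.35 to 4.47. Vehicle library 3 held 0.798% of its counts as Mpeg1, against 0.715% to 0.721% in the other vehicle libraries.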

How the results depend on the processing

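With plain library totals, 1988 genes were higher and 8457 lower, and the log2 fold changes were -2.14 for Lyz1, -2.12 for Lyz2 and -0.24 for Mpeg1, the last a change of sign. That setting also gave 1 lower MACPF gene, 3 lower phagosome genes and 1 higher flanking gene, and it turned the direction of Fam111a (-0.048), Frs2 (-0.12), Il10ra (-0.24), Irf8 (-0.23), Itpr2 (-0.13), Rpe (-0.31), Rtraf (-0.29), Spi1 (-0.012) and Syap1 (-0.20). DESeq2 and the fit with no filter each gave 1 lower gene of the lysozyme family and 5 higher flanking genes, since Lyzl4, Cpm and Gm4952, which the filter removed, were then tested. With the replicate block 3 MACPF genes were lower, and the block changed no other call of a named gene. Per kilobase of exon Lyz2 ranked 2 in the LPS group. Without each library in turn, the lower calls of the lysozyme family list were 0 to 1, and the log2 fold change ran from -1.72 to -1.17 for Lyz1, from -1.69 to -1.18 for Lyz2 and from 0.34 to 0.57 for Mpeg1. Upper quartile scaling moved the median of all tested genes by -0.16 on the log2 scale. Among 42 named genes other than the members, it ended the call of 4 (Spi1, Il10ra, Rpe and Rtraf) and made 1 (Slc35e3). No filter ended 3 calls (Ctcf, Il10ra and Rpe), and DESeq2 ended 1 (Ctcf) and made 1 (Irf8). Depth limits the low members of the lists: no change could be read for genes at the floor. The cause of these differences was not tested unless stated.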
